A study of Mus musculus with 11 samples.

Results

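Transcripts of 10 arterial wall proteoglycans were measured in the descending aorta of old male C57BL/6 mice. The genes were Dcn, Bgn, Aspn, Lum, Fmod, Prelp, Ogn, Vcan, Acan and Hspg2, taken by gene symbol among 36413 names on the array, with all of their 13 probes. One group of 20-month-old mice had drunk 1 g/L NaNO3 for 8 weeks (5 arrays, old nitrate treated mice), and the other group of the same age and strain had not (6 arrays, old control mice). The study's methods give sodium chloride at equal concentration to the controls, while the labels of the control arrays name no sodium chloride and describe a second analysis of earlier samples. Each array held RNA of the vessel of 1 mouse, flushed and cleaned of outer fat, so that all layers of the wall were measured together. A lower number of cells of one type and less RNA per cell cannot be told apart in such tissue.

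Proteoglycans are core proteins that carry long, negatively charged sugar chains. In the artery, decorin, biglycan, asporin, lumican, fibromodulin, prolargin and osteoglycin are small leucine-rich proteins that bind collagen fibrils and steer their assembly (asporin and prolargin carry few or no chains), versican and aggrecan are large water-holding molecules that attach to hyaluronan, and perlecan, the product of Hspg2, is the main heparan sulfate proteoglycan of basement membranes. Smooth muscle cells and adventitial fibroblasts make most of them, and the chains bind growth factors and lipoproteins.

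The comparison between old nitrate treated and old control mice asked whether the transcripts of these core proteins differed after the dietary nitrate. The probes with the lowest P values in it, for Lum, Aspn, Acan and Hspg2, were 60 bases long and are shown by their first 30 bases, 5′ to 3′, because the differences described here rest on what these oligonucleotides bind. A further probe of Hspg2 and the only probe of Dcn, the reference case of a gene with little difference, are shown whole. The capitals mark the stop codon that closes the Dcn reading frame. 
Lum: taagcatttgcacggttacttagtgaaact
Aspn: ctcaactcataataaagcttcaagtattca
Acan: acaggctggctgaagagaagcagagccctc
Hspg2 bright probe: gaacgagggatgatgataaccctgcccatc
Hspg2 dim probe: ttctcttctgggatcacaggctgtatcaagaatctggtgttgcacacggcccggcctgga
Dcn: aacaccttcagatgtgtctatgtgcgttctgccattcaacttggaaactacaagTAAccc
In the mouse build mm9, which the array files use, these probes lay at chr10:97035210-97035269 (Lum), chr13:49662479-49662538 (Aspn), chr7:86259741-86259801 (Acan), chr4:137126392-137126451 (bright probe of Hspg2), chr4:137125445-137125504 (dim probe of Hspg2) and chr10:96980233-96980292 (Dcn). All 6 matched the plus strand. The files counted the first base of the bright Hspg2 probe as base 14023 of its transcript and that of the dim probe as base 13076, so that the bright probe lay nearer to the 3′ end. No exon or UTR was assigned to the other probes here.

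Of the 13 probes, 12 were detected, and every member had at least 1 of them. The probe left out, the third of Vcan, was not well above background on any of the 11 arrays. Values are given as log2 of the quantile normalised intensity, and differences as old nitrate treated minus old control on that scale. Levels of different probes are not compared with each other, since probes bind with different strength. A gene is represented by its brightest detected probe unless another probe is named.

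The arrays were of similar brightness, with a 75th percentile of the processed signal between 213 and 289 and no saturated spot. Control 1 stood apart. It had the lowest mean correlation with the other arrays (r = 0.985), and it was the lowest array for 7 of the 12 detected proteoglycan probes. It also had the lowest summed intensity of 8 smooth muscle markers (540799, against 653279 to 711890 on the other arrays) and the highest sum of 5 brown adipocyte markers (378802, against 129686 to 310064). Without it the difference between the groups, given below with all arrays, was 0.01 for Dcn, -0.15 for Prelp and 0.004 for the dim probe of Hspg2, and values without it for further genes stand beside their results. All control arrays lay in 1 column of the slides, where no nitrate array lay, so that slide column and treatment cannot be told apart.

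Most of the proteoglycan transcripts were slightly higher in old nitrate treated mice, and none of the differences passed correction for multiple testing. The median difference of the 10 genes was 0.18, against 0.017 over all 18294 detected names, and 9 of 10 were higher, where 54.6% of all names were. Unadjusted P values of the limma fit were under 0.05 for 4 genes (Lum, Aspn, Hspg2 and Acan), all higher after nitrate, while 8.04% of all names were higher at this threshold. Acan passed the detection rule through the nitrate arrays only, where it was higher. Its place in this count, in the 9 of 10 and in the median is therefore no support for a difference. No member was lower at the same threshold, against 6.43% of all names. With a fold change above 1.2 required as well, Aspn and Acan were left, against 4.27% of all names higher and 4.62% lower by this rule, and with detection required on all 11 arrays only Aspn was. The smallest adjusted P of a member was 0.309, and 1 of the 18294 names (0.00547%) and 3 of the 23633 detected probes (0.0127%) had an adjusted P under 0.05. For no member were the values of the 2 groups free of overlap, which held for 1.78% of all names in the direction of higher values after nitrate.

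These counts depended on single arrays. Without control 1 none of the 10 genes had an unadjusted P under 0.05, and without nitrate 4 none had either. Across the 11 fits that each left out 1 array, the count ran from 0 to 6, and the number that also passed the fold change ran from 0 to 4. Without control 2 or control 3 it was 1, without nitrate 1, nitrate 2 or nitrate 5 it was 2, and without control 6 it was 6. The number with a higher mean after nitrate ran from 7 to 10.

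**Figure D1:**
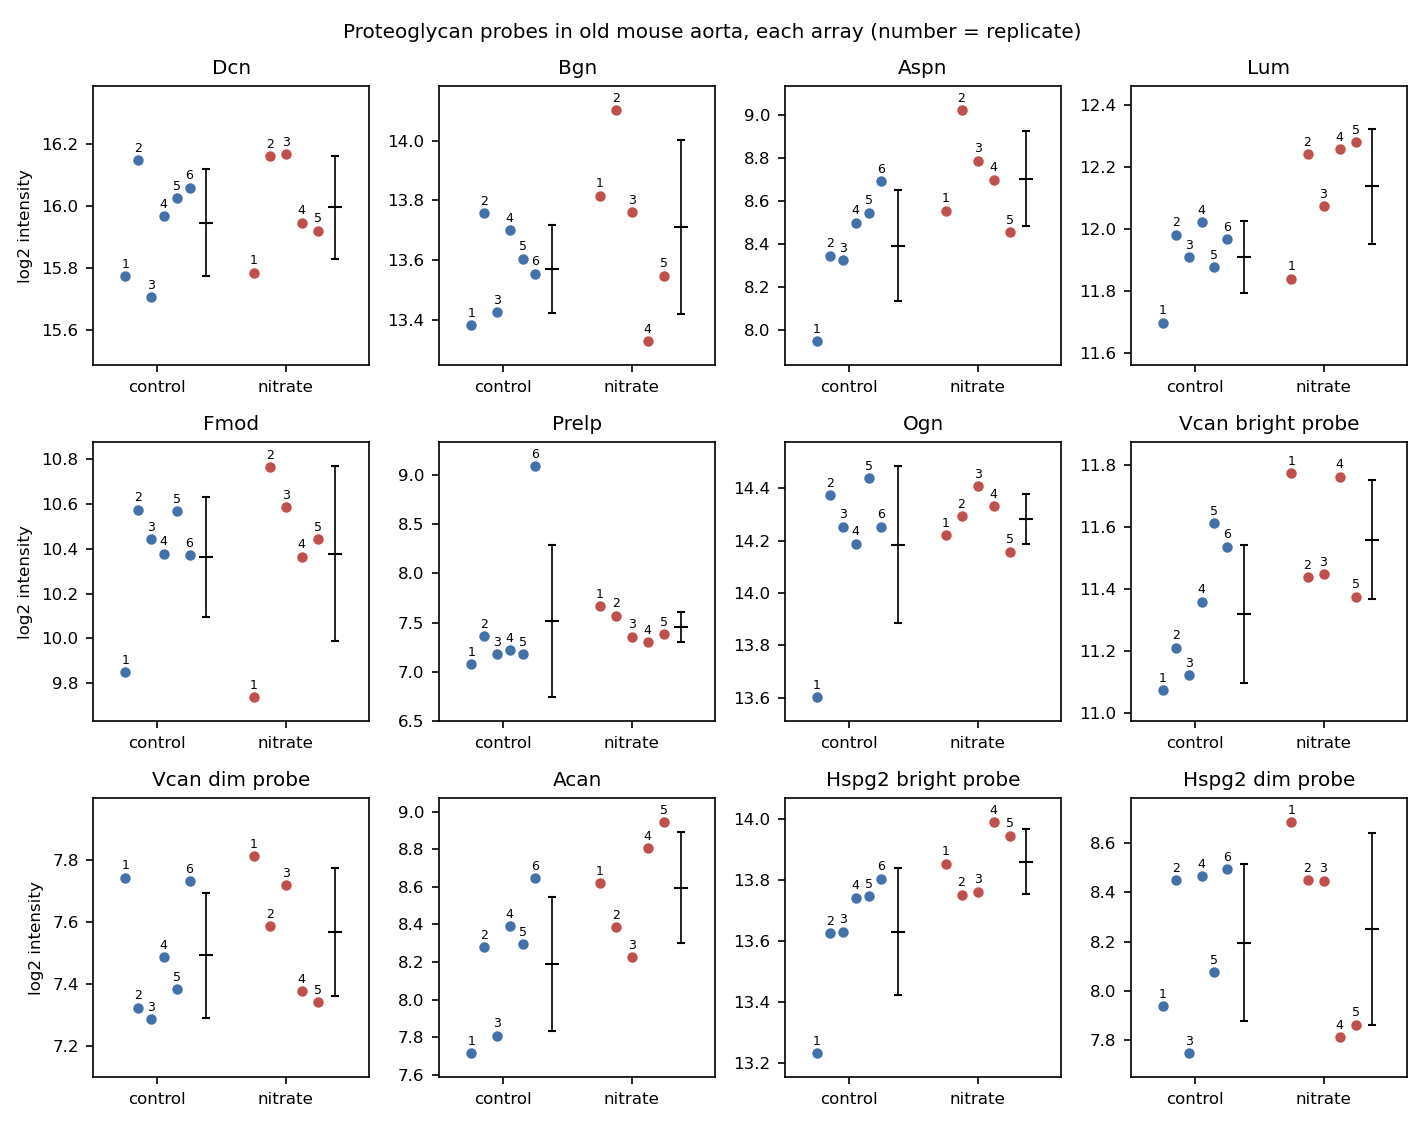
Log2 intensity (vertical axis) of the 12 detected proteoglycan probes on each control array (blue) and nitrate array (red), with the replicate number above each point and the group mean ± SD beside the points. The groups overlap in every panel, control 1 is the lowest point for 7 probes, and control 6 stands apart for Prelp.

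Among the small leucine-rich proteoglycans of the first class, Dcn and Bgn showed little difference and Aspn a larger one. Decorin limits the growth of collagen fibrils and binds transforming growth factor β. Dcn values were 15.79, 16.16, 16.17, 15.95 and 15.92 in old nitrate treated mice and 15.77, 16.15, 15.71, 15.97, 16.03 and 16.06 in old control mice. Both groups covered the same range. The difference was 0.05 (SE 0.10, 95% confidence interval -0.17 to 0.27), with an exact two-sided permutation P of 0.632.

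Biglycan, the closest relative of decorin, is a signal in innate immunity and a binding partner of lipoproteins as well as a fibril organiser. Bgn values were 13.82, 14.10, 13.76, 13.33 and 13.55 after nitrate and 13.38 to 13.76 (median 13.58) in controls. Nitrate 1 and 2 lay above every control, nitrate 3 lay level with the highest, and nitrate 4 lay below every control. The difference of 0.14 (SE 0.13) had a 95% interval from -0.14 to 0.42 (exact permutation P = 0.335), and it was 0.04 without nitrate 2 and 0.24 without nitrate 4.

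Asporin binds collagen and is known to hold back transforming growth factor β in cartilage. Aspn values were 8.55, 9.02, 8.79, 8.70 and 8.45 after nitrate and 7.95 to 8.69 (median 8.42) in controls. All 5 nitrate arrays lay above the control median and 3 lay above every control, with control 1 the lowest array. The difference was 0.31 (SE 0.14), a fold change of 1.24, with limma P = 0.0410, adjusted P = 0.331 and an exact two-sided permutation P of 0.0584. Without control 1 it was 0.22, and the unadjusted limma P was over 0.05 without any one of nitrate 2, 3 or 4 or control 1, 2 or 3. The difference was larger within slide 1, which held 2 arrays of each group and control 1 among them (0.64), than within slide 2 (0.19) or slide 3 (0.14).

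In the second class, Lum had the smallest limma P of all members, though not the smallest exact permutation P, whereas Fmod and Prelp showed no direction that held. Lumican and fibromodulin share a binding site on collagen. Lum values were 11.84, 12.24, 12.07, 12.26 and 12.28 after nitrate and 11.70 to 12.02 (median 11.94) in controls. Nitrate 2, 3, 4 and 5 lay above all controls, and nitrate 1 lay within their range. The difference was 0.23 (SE 0.09), a fold change of 1.17, with limma P = 0.0298, adjusted P = 0.309 and an exact permutation P of 0.0433. It was positive within each of the 3 slides (0.20, 0.079 and 0.38). The unadjusted limma P was over 0.05 without control 1 (difference 0.19), nitrate 2 (0.20), nitrate 4 (0.20) or nitrate 5 (0.19).

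Fmod values spread more widely than the difference between groups. They were 9.74, 10.77, 10.59, 10.37 and 10.44 after nitrate and 9.85 to 10.58 (median 10.41) in controls, with nitrate 1 and control 1 far below the others of their groups. The difference was 0.01 (SE 0.18, 95% interval -0.38 to 0.41, exact permutation P = 0.922), and its sign turned when control 1 was left out (-0.09).

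Prolargin anchors basement membranes to collagen. Prelp values were 7.67, 7.57, 7.36, 7.30 and 7.38 after nitrate. The controls lay between 7.08 and 7.36, apart from control 6 at 9.09. The difference was -0.06 (SE 0.31, exact permutation P = 0.996) with that array and 0.25 without it, where the unadjusted limma P was under 0.05. Its spots were brighter than background throughout, but the scanner software marked them as found on 1 of 5 nitrate and 5 of 6 control arrays, so that Prelp passed the detection rule through the controls only.

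Osteoglycin, of the third class, is a small keratan sulfate proteoglycan that is abundant in normal arteries. Ogn values were 14.22, 14.29, 14.41, 14.33 and 14.16 after nitrate and 13.60 to 14.44 (median 14.25) in controls, where control 1 lay far below the other 5. The nitrate arrays sat inside the control range. The difference was 0.10 (SE 0.13, 95% interval -0.19 to 0.39, exact permutation P = 0.673), and -0.02 without control 1.

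Both large hyaluronan-binding proteoglycans had higher means after nitrate. Versican fills the spaces between smooth muscle cells. On the bright probe of Vcan, at chr13:89795080-89795139 on the minus strand, values were 11.77, 11.44, 11.45, 11.76 and 11.38 after nitrate and 11.08 to 11.61 (median 11.29) in controls. All 5 nitrate arrays lay above the control median, and 4 of 6 controls lay below every nitrate array. The difference of 0.24 (SE 0.12) missed the threshold (95% interval -0.02 to 0.50, limma P = 0.0689, exact permutation P = 0.0931). Without control 1 it was 0.19, and within slide 2 it was 0.0006. The unadjusted limma P was under 0.05 with 75th percentile scaling and without any one of nitrate 5, control 5 or control 6. On the dim probe, at chr13:89851810-89851869, it was 0.07 (SE 0.12, exact permutation P = 0.541). Probes with the same gene name can bind different transcripts, which was not tested.

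Aggrecan is the main space-filling proteoglycan of cartilage and accumulates in diseased arteries. Acan values were 8.62, 8.39, 8.22, 8.81 and 8.94 after nitrate and 7.71 to 8.65 (median 8.29) in controls. Nitrate 4 and 5 lay above all controls, and control 1 and control 3 lay below all nitrate arrays. The difference was 0.41 (SE 0.18), a fold change of 1.33 and the largest of the members, with limma P = 0.0445, adjusted P = 0.338 and an exact permutation P of 0.0823. It was 0.51 within slide 1 and 0.82 within slide 3 but -0.29 within slide 2, which held 1 nitrate and 2 control arrays. The unadjusted limma P was over 0.05 without any one of nitrate 1, 4 or 5 or control 1, 2, 3 or 5, and without control 1 the difference was 0.31.

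The spot of Acan was found on 5 of 5 nitrate and 4 of 6 control arrays, so that it passed the detection rule through the nitrate arrays only. Of 9 cartilage markers 4 were detected, namely Col2a1, the main cartilage collagen (difference 0.10), Comp (0.15), Sox9 (0.20) and Col9a2 (-0.13). Col2a1 passed the detection rule through the nitrate arrays only and Col9a2 through the controls only, each where its mean was higher. Matn1, Matn3 and Col10a1 were above background on 0 arrays. None of the 4 detected markers had an unadjusted limma P under 0.05, and their summed intensity was 3029 to 6599 after nitrate and 3071 to 4789 in controls.

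Perlecan carries heparan sulfate beneath the endothelium and around smooth muscle cells. On the bright probe of Hspg2, values were 13.85, 13.75, 13.76, 13.99 and 13.94 after nitrate and 13.23 to 13.80 (median 13.69) in controls. Of 6 controls, 5 lay below every nitrate array, and control 6 lay among them. The difference was 0.23 (SE 0.10), a fold change of 1.17, with limma P = 0.0431, adjusted P = 0.335 and an exact permutation P of 0.0303. It was 0.37 within slide 1, -0.01 within slide 2 and 0.28 within slide 3. The unadjusted limma P was over 0.05 without any one of nitrate 1, 4 or 5 or control 1 (difference 0.15), 2 or 3. On the dim probe, which the files assign to the same transcript record nearer to its 5′ end, the difference was 0.06 (SE 0.19, exact permutation P = 0.790), with values of 7.81 to 8.68 after nitrate and 7.75 to 8.50 in controls. With both probes averaged it was 0.14, and the unadjusted limma P was over 0.05.

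**Figure D2:**
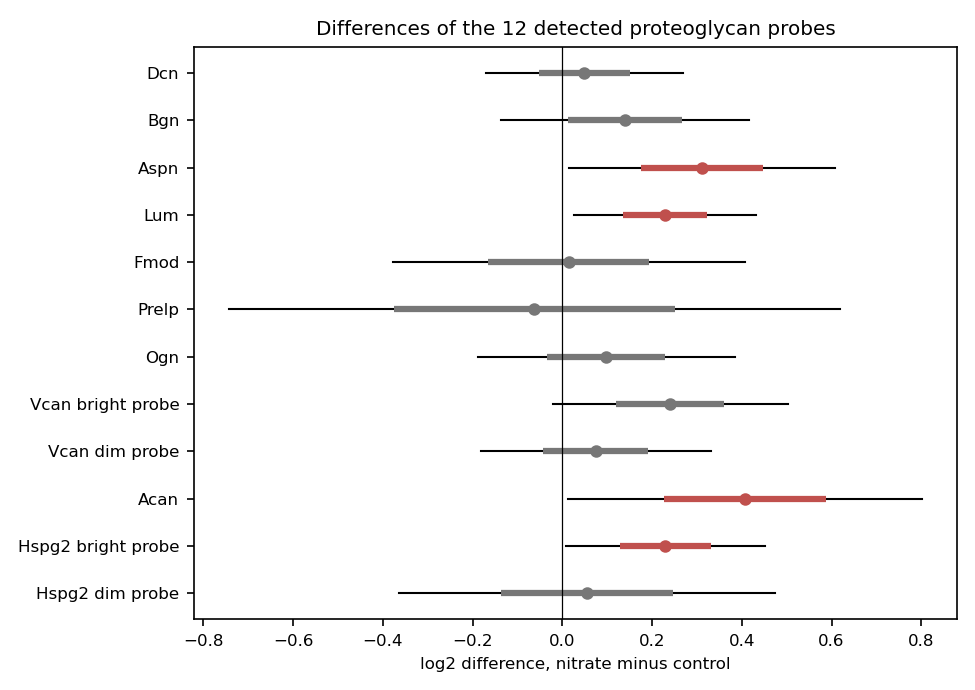
Difference between old nitrate treated and old control mice (horizontal axis, log2) for the 12 detected proteoglycan probes, with SE (thick bars) and 95% confidence interval (thin bars) of the limma fit. Red points mark an unadjusted P under 0.05, which Aspn, Lum, Acan and the bright probe of Hspg2 had, and Acan had the largest difference (0.41).

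**Figure D3:**
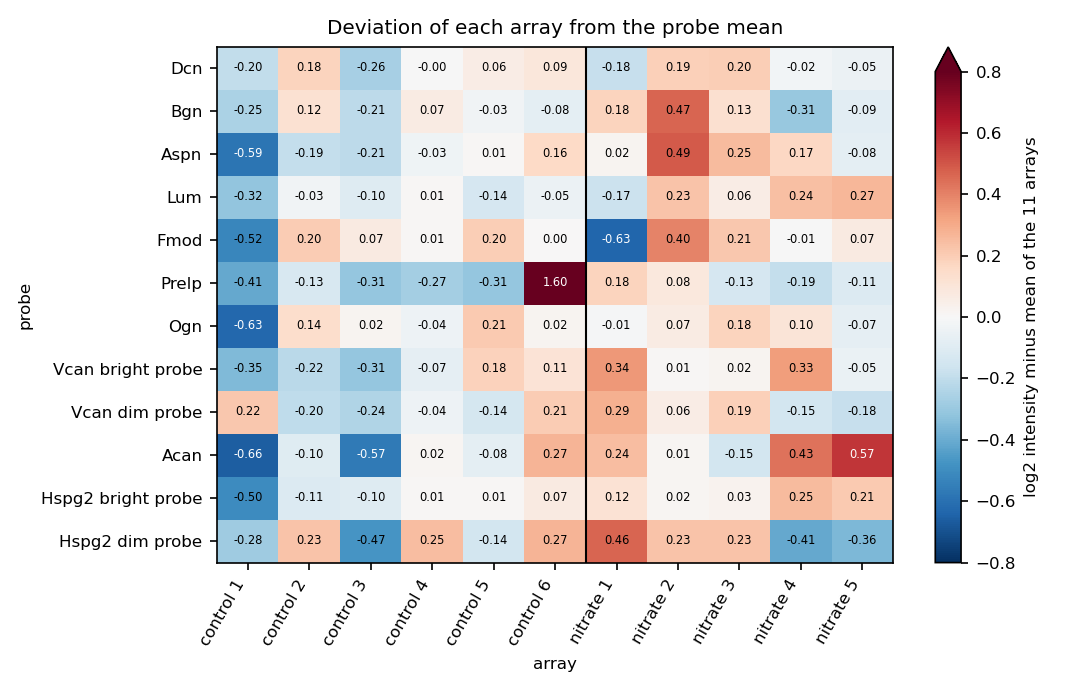
Log2 intensity of each detected proteoglycan probe on each array after subtraction of the mean over the 11 arrays, with the value printed in each cell. The colours end at 0.8, so that Prelp on control 6 (1.60) is beyond the scale, and control 1 is blue for all probes but the dim probe of Vcan.

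The members varied together from array to array to a moderate degree. After each group's mean was subtracted, the 45 pairs of members had correlations over the 11 arrays from -0.12 (lowest) to 0.83 (Acan with Hspg2), with a median of 0.42. Without control 1 the median was 0.19, and 27 instead of 39 pairs lay above 0. Among 12204 candidate genes, the closest to Lum in this measure was Papss2 (r = 0.96), which encodes an enzyme that makes the sulfate donor of glycosaminoglycan chains. The closest to Ogn was Gas6 (r = 0.95), a ligand of TAM receptors, the closest to Fmod were Mgat5b (r = 0.94) and Pcolce2 (r = 0.94), an enhancer of procollagen processing, the closest to Acan was Parg (r = 0.96), and the closest to Hspg2 was Rcor1 (r = 0.98). For the other members the closest were Pdlim2 for Dcn (r = 0.92), Gm6702 for Bgn (r = 0.93) and Baz1b for Vcan (r = 0.94). They were Gm6340 for Prelp (r = 0.91) and 1810055G02Rik for Aspn (r = 0.97). All these values include control 1. Such values are the highest of many over few arrays that share slides, and they are given as a description.

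Several members are neighbours in the genome. The RefSeq gene table (GRCm38.p6) places Ecm2, Aspn, Omd and Ogn side by side on chromosome 13, Dcn, Lum, Kera and Epyc on chromosome 10, and Optc, Prelp and Fmod on chromosome 1. On chromosome 13 Aspn, Ecm2 and Omd had an unadjusted limma P under 0.05 and Ogn did not. Ecm2, an extracellular matrix protein with leucine-rich repeats, had values of 10.06, 9.66, 9.84, 9.90 and 10.08 after nitrate and 9.11 to 9.84 (median 9.58) in controls, a difference of 0.33 (SE 0.13, exact permutation P = 0.0325, limma adjusted P = 0.292), with an unadjusted limma P over 0.05 when the replicate number was a block (0.33). Omd, which encodes the keratan sulfate proteoglycan osteomodulin of bone, had values of 8.67, 9.02, 8.96, 8.89 and 9.19 after nitrate and 8.35 to 8.90 (median 8.68) in controls, a difference of 0.30 (SE 0.12, exact permutation P = 0.0411, limma adjusted P = 0.291). Control 1 was the lowest array for all 4 genes, and without it the differences were 0.24 for Ecm2, 0.22 for Aspn, 0.24 for Omd and -0.02 for Ogn. Whether Ogn differs from its neighbours in this was not tested. On chromosome 10, Kera was above background on 0 arrays and Epyc on 3, so that only Dcn and Lum were measured there, and on chromosome 1 Optc had a difference of 0.25 (SE 0.15, exact permutation P = 0.171), which was 0.13 without control 1 and 0.27 with slide as a block, where the unadjusted limma P was under 0.05.

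**Figure D4:**
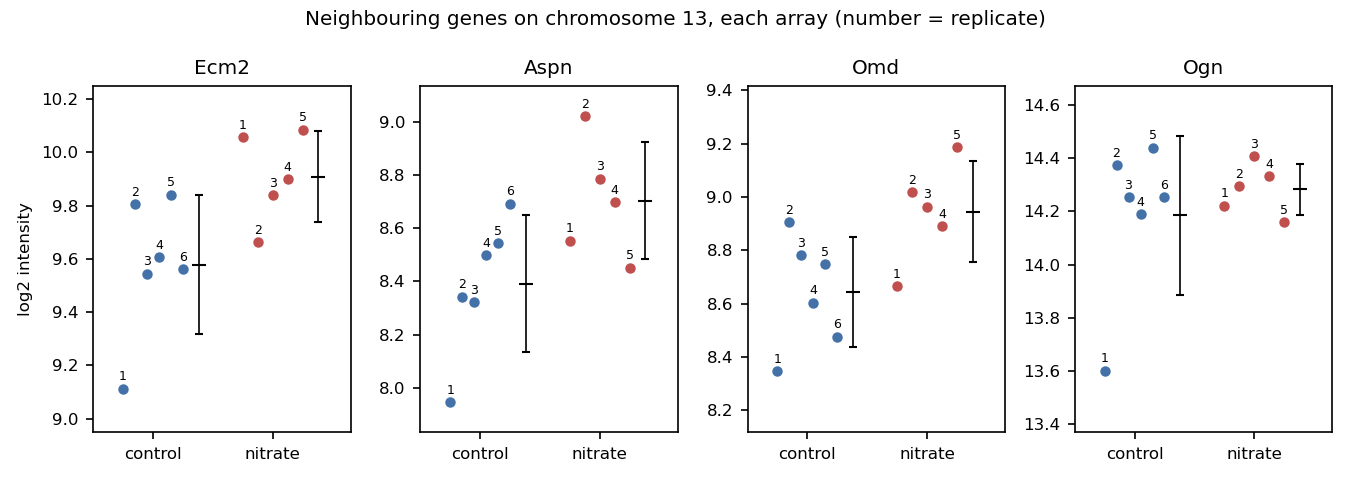
Log2 intensity of Ecm2, Aspn, Omd and Ogn, in the order of the RefSeq gene table on chromosome 13, on each control array (blue) and nitrate array (red), with replicate numbers and the group mean ± SD. The mean after nitrate is higher by 0.33 for Ecm2, 0.31 for Aspn, 0.30 for Omd and 0.10 for Ogn, with control 1 lowest in each panel.

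The promoters of Aspn and Ogn, measured members of the group on chromosome 13, are printed as examples. Prelp and Fmod on chromosome 1 are measured neighbours too, and their promoters are not printed. Promoter windows of RefSeq (GRCm38.p6, 250 bases before to 50 bases after the start of the gene) were held for 8 of the 10 members, all but Dcn and Lum. The capitals mark TATAAA and CCAAT on either strand, and matches of the 2 motifs do not overlap each other in these windows. 
Aspn (chr13:49544193-49544492, plus strand): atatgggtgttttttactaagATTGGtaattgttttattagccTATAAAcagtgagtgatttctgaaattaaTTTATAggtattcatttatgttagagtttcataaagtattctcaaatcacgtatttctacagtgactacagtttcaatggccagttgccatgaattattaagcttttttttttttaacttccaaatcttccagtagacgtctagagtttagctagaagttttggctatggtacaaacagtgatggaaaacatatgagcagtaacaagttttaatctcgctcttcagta
Ogn (chr13:49607765-49608064, plus strand): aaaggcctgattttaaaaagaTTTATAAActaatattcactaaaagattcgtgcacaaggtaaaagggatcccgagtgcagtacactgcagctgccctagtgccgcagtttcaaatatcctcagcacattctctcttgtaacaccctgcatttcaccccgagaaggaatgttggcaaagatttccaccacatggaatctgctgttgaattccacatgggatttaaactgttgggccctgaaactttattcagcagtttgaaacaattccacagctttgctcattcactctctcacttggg
TATAAA was found 2 times in each of these windows, in Ogn on both strands of the same stretch, and in none of the windows of the other 6 members, and 14.2% of 27025 promoters of the same length hold it. CCAAT was found once in the windows of Aspn, Vcan, Acan, Fmod and Prelp and in none of those of Ogn, Bgn and Hspg2, against 37.9% of all promoters. All matches in Aspn and Ogn lay before the start of the gene.

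The other genes of the pathway were taken from lists of enzymes and related proteins. Of 11 further small leucine-rich proteoglycans 8 were detected, Ecm2 and Omd passed both the P and the fold change threshold (against 4.27% of all names higher, and 0 to 3 genes when 1 array was left out), and the median difference was 0.19. Of 25 cell surface and other matrix proteoglycans 21 were detected, with 2 higher and 1 lower by the same rule, against 4.27% and 4.62% of all names. When 1 array was left out, the number higher ran from 1 to 3 and the number lower stayed at 1. Prg4, the lubricant of joint surfaces, was higher by 0.58 (SE 0.19, exact permutation P = 0.0325, limma adjusted P = 0.234), and Col18a1, a heparan sulfate bearing collagen of basement membranes, was higher by 0.31 (SE 0.13, exact permutation P = 0.0130, limma adjusted P = 0.312), which was 0.20 without control 1. Cspg5, a chondroitin sulfate proteoglycan known from the nervous system, was lower by the largest amount. Its values of 5.26 to 6.04 after nitrate and 6.10 to 6.57 in controls did not overlap, and the difference of -0.69 (SE 0.14) had an exact permutation P of 0.0022, the smallest possible, and a limma adjusted P of 0.0997. The share of all names that were lower without overlap was not counted.

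The enzymes that build chondroitin and dermatan sulfate chains, which Dcn, Bgn, Vcan and Acan carry, showed mostly small positive differences. Of 16 genes 15 were detected, and 13 had a higher mean after nitrate, where 54.6% of all names did. Among the 13, Csgalnact1 (0.13) passed the detection rule through the nitrate arrays only, so that its place there is no support. With an unadjusted limma P under 0.05, 6 were higher and 1 was lower (against 8.04% and 6.43% of all names). The median difference was 0.15. Chpf2, a chondroitin polymerising factor, was higher by 0.36 (SE 0.09, exact permutation P = 0.0043, limma adjusted P = 0.152). Chst14, which sulfates dermatan, was higher by 0.27 (SE 0.08, exact permutation P = 0.0065, limma adjusted P = 0.217), with values of 8.65 to 8.77 after nitrate above all controls (8.13 to 8.61). Without control 1 it was 0.21, under the fold change threshold (0.263 in log2). Within slides 1, 2 and 3 it was 0.43, 0.27 and 0.085. Dsel, an epimerase that turns chondroitin into dermatan sulfate, was 0.25 higher (exact permutation P = 0.0065), and its groups also did not overlap. Higher values after nitrate without overlap were found for 1.78% of all names. Ust (0.26), Csgalnact2 (0.21) and Chpf (0.23) had exact permutation P values between 0.0238 and 0.0368. Chst15, which adds a second sulfate to chondroitin sulfate, was lower, with a difference of -0.54 (SE 0.15, exact permutation P = 0.0152, limma adjusted P = 0.182), with values of 7.63 to 8.18 after nitrate and 8.03 to 8.81 in controls.

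In the remaining lists, counts by both thresholds stand against 4.27% of all names higher and 4.62% lower. Genes named by P alone stand against 8.04% of all names higher and 6.43% lower. Of 14 detected genes for the linker sugars and the sulfate supply, 0 passed both thresholds (median 0.04), and Xylt2, which starts the chains by adding xylose to the core protein, was 0.26 higher (exact permutation P = 0.0281), as was Slc35b3, a carrier of the sulfate donor, by 0.21 (exact permutation P = 0.0325). Of 12 detected heparan sulfate enzymes, 2 were lower by both thresholds, Hs6st1 (-0.32, exact P = 0.0260) and Hs3st6 (-0.50, exact P = 0.0693), while Extl2 (0.21, exact P = 0.0043) and the sulfatase Sulf1 (0.26, exact P = 0.0541) were higher by P alone. Of 12 detected genes for hyaluronan and its binding proteins, 1 was lower, Itih5 (-0.46, exact P = 0.0130), and the median was -0.01. Of 11 detected proteases and inhibitors that act on the core proteins, with a median difference of 0.24, Bmp1 (0.33, exact P = 0.0216), which removes the propeptides of biglycan and procollagens, and its relative Tll1 (0.33, exact P = 0.0519) were higher, and the protease inhibitor Timp3 was higher by P alone (0.25, exact P = 0.0173). The unadjusted limma P was over 0.05 for Bmp1 with its probes averaged (0.17) and for Tll1 under normexp background correction (0.099) and with a trended robust prior. Bmp1 was 0.24 without control 1, and 0.62, 0.25 and 0.097 within slides 1, 2 and 3. Among 13 detected genes of lysosomal breakdown, with a median difference of 0.11, the heparanase Hpse was higher by both thresholds with overlapping groups (0.27, exact P = 0.0693), and the unadjusted limma P was over 0.05 with slide, slide row or replicate number (0.22) as a block, under 75th percentile scaling, under normexp (0.18) and with no detection filter. The thresholds refer to the unadjusted P of the limma fit, and none of these genes had an adjusted P under 0.05. When 1 array was left out, the number of heparan sulfate enzymes lower by both thresholds ran from 0 to 2. The number of proteases and inhibitors higher by both ran from 0 to 4. Prg4, Cspg5, Chpf2, Chst14, Chst15, Hs6st1 and Itih5 had an unadjusted limma P under 0.05 in all 11 fits that left out 1 array, Bmp1 and Omd in 10, Ecm2 in 9, Col18a1 in 7, Tll1 in 6, Hs3st6 in 5 and Hpse in 2.

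**Figure D5:**
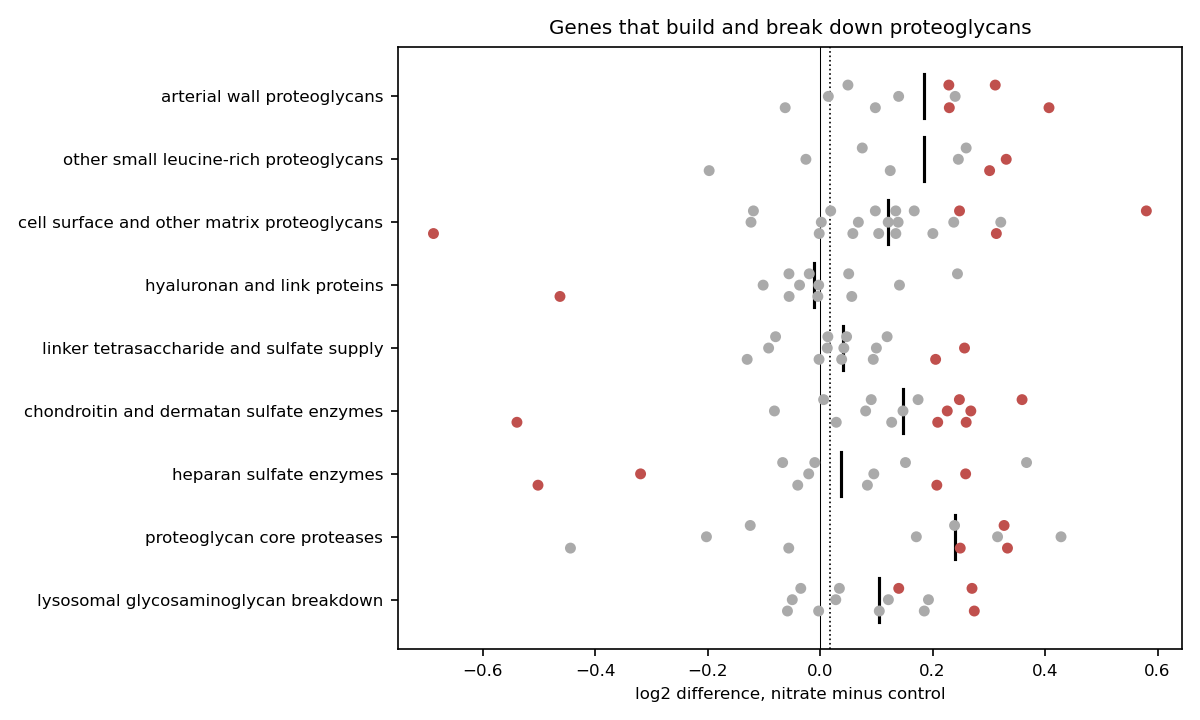
Difference between old nitrate treated and old control mice (horizontal axis, log2) for the detected genes of the 10 proteoglycans and of 8 pathway lists, with the median of each list (bar) and of all 18294 detected names (dotted line, 0.017). Red points have an unadjusted limma P under 0.05. The chondroitin and dermatan sulfate enzymes hold 6 such genes to the right of 0 and Chst15 to the left.

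Some markers of the cell types of the vessel moved in the same comparison. Of all names, 54.6% were higher after nitrate, 8.04% with an unadjusted limma P under 0.05 and 1.78% with no overlap of the groups. Both thresholds were passed by 4.27% of all names higher and 4.62% lower. The 8 white adipocyte markers were all detected and all lower after nitrate, 4 of them by both thresholds (against 4.62% of all names lower), among them Adipoq (-0.49, exact permutation P = 0.0022) and Retn (-0.84, exact P = 0.0043), and their summed intensity was 240741 to 311836 after nitrate and 311158 to 432052 in controls. The 8 adventitial fibroblast markers were all higher, 1 of them with an unadjusted P under 0.05 (Pi16, 0.25, exact permutation P = 0.0303), with sums of 47087 to 56736 after nitrate and 41746 to 51246 in controls. Of 8 smooth muscle markers 7 were higher, Lmod1 by both thresholds (0.31, exact permutation P = 0.0325) and Smtn by P alone and with no overlap (0.26, exact permutation P = 0.0043), with sums of 678772 to 711890 after nitrate and 540799 (control 1) to 708034 in controls. All 7 detected striated muscle markers were higher, none with a P under 0.05, and their sums were highest on nitrate 4 (53122) and control 1 (37274). Of 7 endothelial markers 3 were higher, Vwf with an unadjusted limma P under 0.05 (0.22), and the median of the 7 was -0.10. Cdh5 and Emcn, both lower, passed the detection rule through the controls only. All 6 macrophage markers were higher, none with a P under 0.05. Among them Cd68 passed the detection rule through the nitrate arrays only. Of 5 brown adipocyte markers 2 were higher, and Cidea was lower by both thresholds (-0.52), and of 4 detected nerve sheath markers Mal was higher (0.30) and Mbp lower (-0.46) by both. Of 4 mesothelial markers 0 were detected. The part of these cell types in the differences of the proteoglycans was not tested.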

How the data were processed

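RNA of 11 aortas was hybridised to one-colour Agilent mouse arrays. Per the file headers, Feature Extraction 10.7.1.1 made the background-subtracted spot intensities. The authors also deposited log2 values, quantile normalised and centred on each probe's median, as a check against the intensities showed. Here, processed signals were raised to at least 1, put on the log2 scale and quantile normalised, outlier-flagged and control spots were left out, and spots of a probe were averaged. A detected probe (23633 of 55681) was found and above background on 5 or more arrays of one group. Groups were compared with limma 3.58.1 in R 4.3.3 over all detected probes with Benjamini-Hochberg adjustment, and single probes with exact two-sided permutation tests over all 462 divisions (smallest P 0.0022). On simulated data, 70% of changes of 0.25 and 92% of changes of 0.5 (log2) had P under 0.05, as did 4.93% of unchanged probes. The number of arrays limits the precision.

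The members and gene lists were chosen with earlier results of these data known. Named were all members, genes of the pathway lists past both thresholds and some with unadjusted P under 0.05 alone, marker genes, genome neighbours and the closest genes by correlation. Alternatives changed scaling, background correction, offset, filter, flags, prior variance, blocks and probe summary, or left out 1 array. Mice were separate animals. A further nitrate mouse that the study describes was not analysed here. One gene of the lists is not reported here.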

Additional observations from a re-analysis of the deposited data

Results flagged for a closer look

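In 58 groups of arrays the highest or lowest value was compared with the others by its gap to the nearest value, divided by the range. This gap was beyond the 95% limit in 6 groups, where chance gives about 1 in 20, or 2.9. Control 1 was low for Fmod (gap ratio 0.722), Ogn (0.701), the bright probe of Hspg2 (0.689) and Col18a1 (0.637). Control 6 was high for Prelp (0.86), where its processed signal was 458 against 118 to 169 on the other controls. Nitrate 2 was high for Chst14 (0.744).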

How the results depend on the processing

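Under 75th percentile scaling, normexp, an offset of 16, the deposited table, flagged spots kept, another prior, slide or row blocks and the mean of a gene's detected probes, the counts of members with an unadjusted P under 0.05 and of those also past the fold change stayed within 1.5 times the reported 4 and 2. With detection on all 11 arrays the second count was 1, and with no detection filter the counts were 2 and 0. Leaving out 1 array gave 0 to 6 and 0 to 4. The replicate numbers did not pair the samples (correlations from -0.136 to 0.180), and with them as a block the counts were 5 and 3. No member had an adjusted P under 0.05 in any fit. The mean of the probes took Hspg2 to 0.14 and Bmp1 to 0.17, with unadjusted P over 0.05. Under normexp Cspg5 was -0.36, Hs6st1 -0.18, Hs3st6 -0.18, Prg4 0.39, Hpse 0.18 and Tll1 0.099, the last 2 over 0.05 in P. Signs turned within slide 2 for Acan (-0.29), Chst15 (0.018) and the bright (-0.011) and dim (-0.034) probes of Hspg2, and within slide 3 for Bgn (-0.077), Fmod (-0.10), Ogn (-0.10), Optc (-0.0018) and the dim probe of Hspg2 (-0.075). Prelp was positive within slides 1 (0.40) and 3 (0.16). Fmod turned with slide row as a block (-0.017) and ran from -0.089 to 0.18 when 1 array was left out, the dim probe of Hspg2 from -0.053 to 0.17, Ogn from -0.018 to 0.15 and Prelp from -0.15 to 0.25. Prelp also turned with slide as a block (0.011) and with the replicate block (0.25). The cause of these changes was not tested. Acan and Prelp were the members nearest to the detection limit, found on 9 and 6 of 11 arrays.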
